A study of Mus musculus with 16 samples.

Results

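The genes described here are 50 genes of the G2 phase and of mitosis, the part of the cell cycle in which a cell with copied chromosomes prepares to divide and then divides. They were taken from a list of symbols that names regulators, motors and chromosome proteins of this phase, and all 50 were present among the 12321 genes of the table. The RNA came from LKR10, a cultured murine line of lung adenocarcinoma origin, and made up 16 libraries. The cells had received a pLKO lentiviral vector with a short hairpin RNA against Ankrd35, an ankyrin repeat gene, or against GFP as the control. They grew as a monolayer (2D) in DMEM with serum, or in the same medium with 0.5% methylcellulose, a viscous polymer that keeps cells off the plastic (3D). The 4 groups of 4 libraries were thus 2D shGFP, 2D shAnkrd35, 3D shGFP and 3D shAnkrd35. Cells of every group, controls included, carried the vector, underwent 48 h of selection with puromycin (4 µg/ml) and were harvested 96 h later. A single cell line was used, and the labels name no individual hairpin, so how many hairpins stand behind each target is not known here.

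The libraries held 13.82 to 28.72 M reads assigned to genes. The labels do not say whether replicates came from separate cultures. All p-values are therefore against a spread between libraries that could be technical. Ankrd35 itself had 1 to 7 reads per library in 2D and 9 to 17 in 3D, with means in 2D of 0.219 CPM (a gene's reads scaled to the size of its library) for shGFP against 0.187 for shAnkrd35, and in 3D of 0.597 against 0.501. These counts did not settle which hairpin a library carried, so every direction below rests on the labels. One library, replicate 1 of the 2D shAnkrd35 group, was unlike its fellows: the chi-squared per degree of freedom of its pairs was 33.01 to 45.22, and that of the other pairs in the group 4.06 to 11.57. The epithelial markers Cdh1, Krt8, Krt18 and Krt19 were abundant (means of 494, 3446, 2165 and 520.3 CPM), Epcam and Krt7 were low (1.18 and 1.59 CPM), and of the 6 lung markers Foxa2 alone was in the table. No lymphocyte, endothelial or erythroid marker was in the table, nor were the macrophage-defining Ptprc, Csf1r and Adgre1. The other 3 genes of the macrophage list (Cd68, Lyz2 and Cd14) summed to 41.4 to 42.7 CPM in the 2D control, 79.5 to 87.9 with the Ankrd35 hairpin in 2D, 116 to 124 in the 3D control and 129.7 to 152 with that hairpin in 3D, most of it Cd14 (mean of 89.8 CPM). Whether these levels bear on the members was not tested. The 5 fibroblast markers in the table summed to 12.6 to 48.2 CPM over the 16 libraries.

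Most genes of G2 and mitosis are switched as a group. In resting and early cycling cells the DREAM complex, built on the MuvB core, holds them down through a short promoter element, the cell cycle genes homology region (CHR). Later in the cycle the same core works with B-Myb and the transcription factor Foxm1 to raise them, and the factor NF-Y binds CCAAT boxes that often stand upstream of the CHR. The products then act in order. Cyclins with Cdk1 start mitosis, kinesins and kinetochore proteins move chromosomes, the checkpoint delays separation until all are attached, and the anaphase-promoting complex with Cdc20 marks cyclin B and securin for destruction.

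Since these elements are what the members are known to share, their promoters were read for both motifs. RefSeq windows of 300 bases (250 before the start and 50 after it, build GRCm38.p6) were found for 42 of the 50 members, 45 windows in all. The CHR was searched as TTTGAA and the CCAAT box as CCAAT, each on both strands (TTCAAA and ATTGG on the other). A CHR match stood in 75.6% of the member windows, against 17.8% of all 32544 windows of the table and 12.0% of the 11898 windows of tested genes. At least 2 CCAAT matches stood in 57.8% of member windows, against 11.6% and 14.3%. Both together were found in 48.9% against 2.1% and 1.9%, and they belonged to 20 members. A match is a description of letters and not of binding. The 4 windows below are shown because these genes have the highest length-corrected levels among the members with both motifs and because Mki67, which went against the other members in 2D, is one of them. Only the 250 bases before the start are printed, 5′ to 3′ along the gene's strand, with CHR and CCAAT matches in capitals.
Top2a (chr11:99024190-99024439, minus strand): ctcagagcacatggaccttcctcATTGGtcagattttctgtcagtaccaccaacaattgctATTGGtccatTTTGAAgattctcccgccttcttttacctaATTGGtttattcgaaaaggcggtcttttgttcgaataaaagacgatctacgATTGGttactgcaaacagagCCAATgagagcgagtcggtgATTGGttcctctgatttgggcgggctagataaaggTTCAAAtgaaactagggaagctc
Cdc20 (chr4:118437344-118437593, minus strand): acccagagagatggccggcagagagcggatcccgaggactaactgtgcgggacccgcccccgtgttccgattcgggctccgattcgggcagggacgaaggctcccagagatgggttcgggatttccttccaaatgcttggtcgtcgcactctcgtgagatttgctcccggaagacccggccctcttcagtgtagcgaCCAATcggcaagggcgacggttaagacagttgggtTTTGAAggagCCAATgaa
Ccnb2 (chr9:70421555-70421804, minus strand): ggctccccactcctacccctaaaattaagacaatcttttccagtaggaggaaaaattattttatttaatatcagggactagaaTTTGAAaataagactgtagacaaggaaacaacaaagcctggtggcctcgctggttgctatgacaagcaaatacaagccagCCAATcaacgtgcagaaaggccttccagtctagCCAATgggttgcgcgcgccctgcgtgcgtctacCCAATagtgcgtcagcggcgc
Mki67 (chr7:135716380-135716629, minus strand): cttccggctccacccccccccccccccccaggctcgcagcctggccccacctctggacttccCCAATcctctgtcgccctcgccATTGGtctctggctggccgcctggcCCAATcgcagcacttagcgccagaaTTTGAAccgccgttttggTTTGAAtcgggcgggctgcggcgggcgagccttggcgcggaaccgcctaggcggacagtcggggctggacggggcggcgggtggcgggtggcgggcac
In Cdc20 the CHR match began 18 bases before the start, between CCAAT matches at 53 and 8 bases. In Top2a a CHR match at 23 bases lay downstream of all 6 CCAAT matches and another, at 179 bases, among them. In Ccnb2 the 3 CCAAT matches lay at 87, 54 and 21 bases and the printed CHR match, at 167 bases, upstream of all of them. A further CHR match of Ccnb2 begins after the start, outside the printed bases. Mki67 held 2 CHR matches, at 116 and 98 bases, downstream of 3 CCAAT matches at 188, 166 and 141 bases. Not all members hold these letters: 11 of the 42 have no CHR match. Of these, Birc5, Pttg1 and Nuf2, all higher in 2D, and Mad2l1 and Nusap1, not called there, have neither motif. The promoter of Cenpa, which has both motifs too, was not printed because 109 of its bases lie within the transcribed part of the GENCODE gene. In the 2D hairpin comparison 18 of the 31 members with a CHR match rose and 4 fell (median log2 fold change 0.233). Of the 11 without one, 6 rose and 1 fell (median 0.234), so the medians were nearly the same. Over all genes 29.0% rose and 28.8% fell.

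Per kilobase of the longest protein-coding transcript, the most abundant member over all 16 libraries was Racgap1 (73.6 CPM per kb), which regulates the central spindle. Top2a (66.9), the topoisomerase that untangles chromosomes, and Cdc20 (54.4) came next. Among the lowest were the kinase Nek2 (5.37), the checkpoint protein Mad2l1 (6.96) and the kinetochore motor Cenpe (7.03). These levels divide by the length of a gene's longest annotated protein-coding transcript, and so understate a gene whose main transcript is shorter. The members' summed level was 2982 ± 211 CPM for shGFP and 3284 ± 103.3 for shAnkrd35 in 2D, and 4355 ± 132.8 and 4192 ± 115.9 in 3D (SD, n = 4). The 2D groups overlapped slightly in this sum (2742 to 3164 and 3156 to 3408), while every 3D library was above every 2D library. In bulk RNA, fewer cells in G2 and mitosis and less RNA of these genes per cell cannot be told apart.

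In 2D, most members had more RNA in libraries labelled shAnkrd35. Of the 50, 30 rose and 5 fell, and the median log2 fold change was 0.24 (limma, adjusted p under 0.05 over 12320 genes). Over all genes 57.9% were called, 29.0% higher and 28.8% lower, with a median of 0.01, so the members' share of 60.0% higher was above the background and their share of 10.0% lower below it. The 4 libraries of each hairpin did not overlap for 25 members, all of them higher in shAnkrd35, against 22.3% of all genes that were higher without overlap and 17.5% lower. At least 2-fold changes were called for 3 members (Mki67, Cenpe and Cenpf), against 5.58% of all genes. The 5 that fell were Mki67, Cenpe, Cenpf, Kif20b and Cdca8. None of the 5 separated the groups, and they are described after the members that rose. With replicate 1 of the 2D shAnkrd35 group left out, 30 rose and 6 fell.

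**Figure D1:**
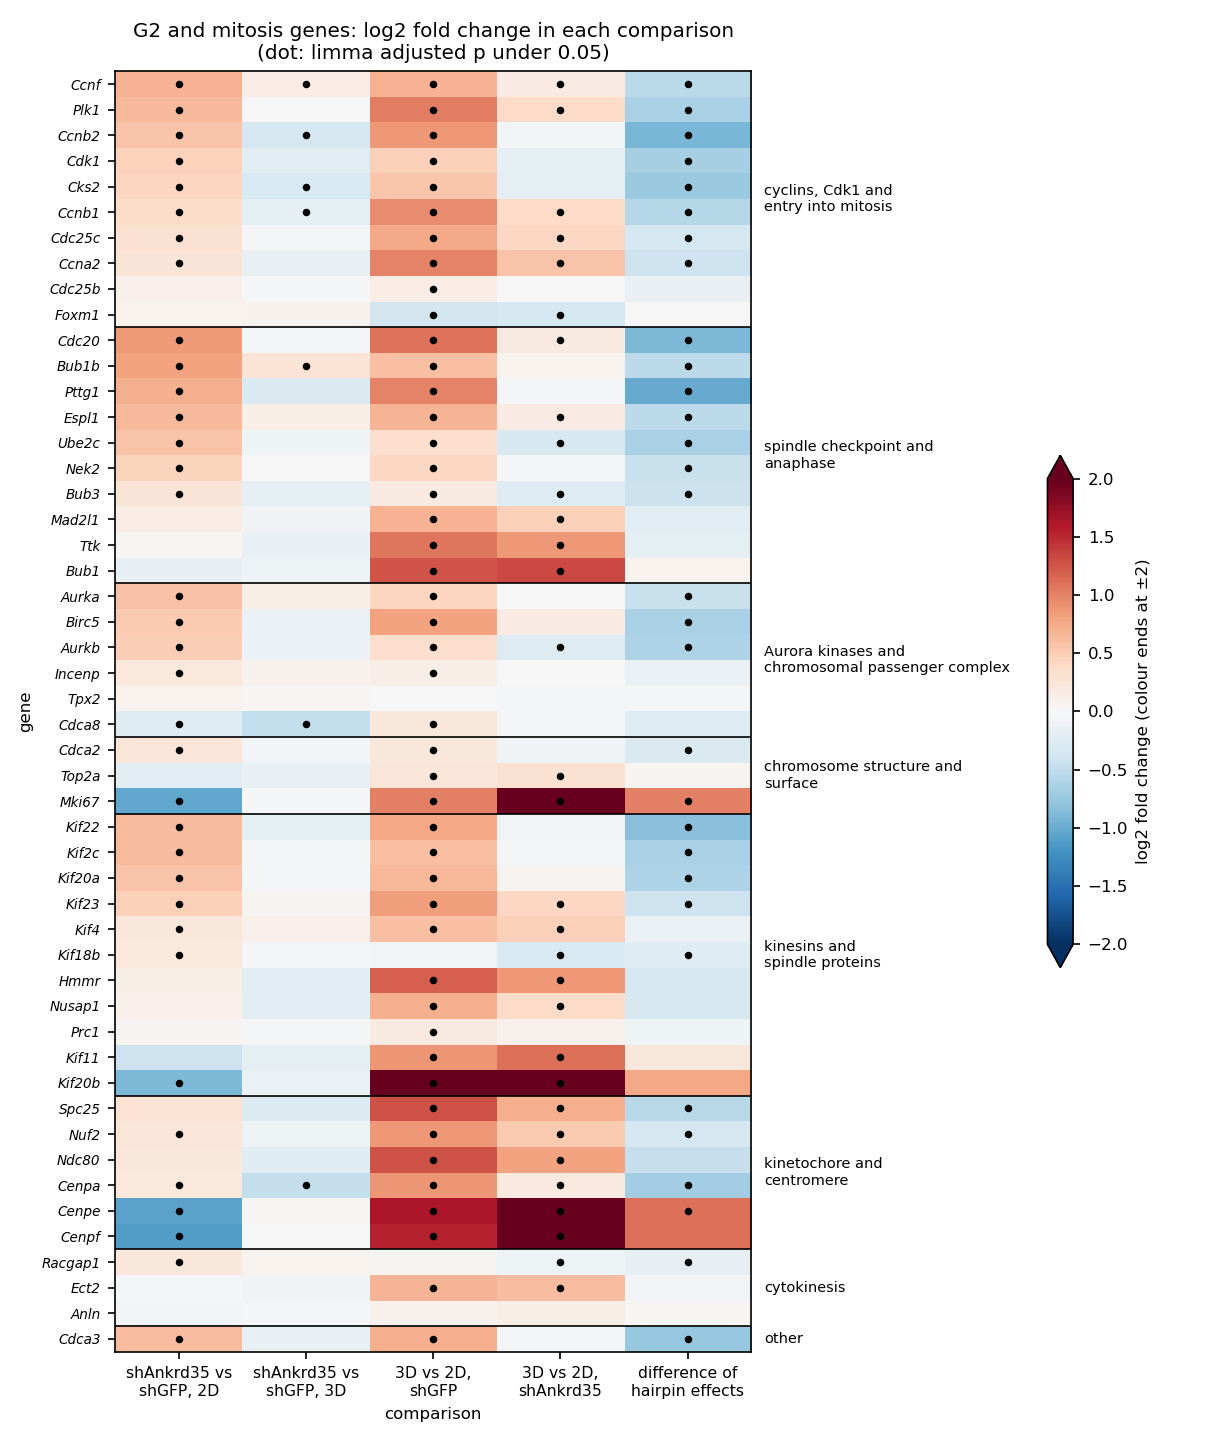
Log2 fold changes of the 50 genes (rows, grouped by role) in the 5 comparisons (columns), red for higher and blue for lower, with a dot where limma's adjusted p was under 0.05. The first column holds 30 red and 5 blue dotted cells, the second 2 and 5, the third 45 and 1, the fourth 25 and 6, and the fifth 2 and 29.

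Among the genes that start mitosis, 8 of 10 rose in 2D and none fell. Ccnf, a cyclin-like F-box protein of a ubiquitin ligase, was at 26.2, 24.0, 24.8 and 27.2 CPM in 2D shGFP (replicates 1 to 4) and at 40.5, 43.3, 40.8 and 40.9 in 2D shAnkrd35. Plk1, the polo kinase that drives entry into mitosis and spindle assembly, was at 28.1, 25.0, 25.2 and 26.8 against 38.6, 44.0, 41.5 and 41.4 CPM. The groups were far apart for both, with log2 fold changes of 0.70 ± 0.05 and 0.65 ± 0.05 (SE, adjusted p = 2.363e-08 and 3.775e-08). Of the mitotic cyclins that activate Cdk1, Ccnb2 was at 31.1, 31.4, 31.6 and 34.4 against 42.5, 48.4, 51.5 and 49.5 CPM (0.57). Ccnb1 rose by 0.37 and Ccna2, the cyclin of S and G2, by 0.26, the latter from 43.0, 51.3, 45.9 and 51.4 to 62.8, 53.8, 55.2 and 57.4 CPM. These 3 cyclins did not overlap between the hairpins. Cdk1 itself rose by 0.46 and its small partner Cks2 by 0.43. Cks2 was at 21.3, 21.0, 18.3 and 20.2 against 21.6, 29.2, 30.1 and 29.3 CPM, so replicate 1 of the hairpin group was just above the control range and the other 3 well above it. The Cdk1-activating phosphatase Cdc25c rose by 0.31, while its relative Cdc25b (0.10) and the transcription factor Foxm1 (0.08) were not called.

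Of the checkpoint and anaphase genes 7 of 10 rose and none fell. Cdc20, which switches on the anaphase-promoting complex, lies on chromosome 4 (118432901 to 118437352, mm10, minus strand). It was at 59.7, 56.0, 51.6 and 56.4 CPM in 2D shGFP and at 87.2, 107, 109 and 102 in 2D shAnkrd35 (log2 fold change 0.85 ± 0.07, SE, adjusted p = 1.897e-08). Bub1b, the kinase-like subunit of the mitotic checkpoint complex (chromosome 2, 118598211 to 118641591, plus strand), was at 80.0, 73.1, 79.2 and 75.6 against 146, 130.3, 139.9 and 122 CPM (0.80 ± 0.06, SE, adjusted p = 6.258e-09). Both stood clear of shGFP in every library, and so did Espl1, the protease separase that cuts cohesin, at 61.1, 61.4, 56.1 and 61.0 against 94.6, 93.5, 98.2 and 88.5 CPM (0.65). Pttg1, securin, the inhibitor of separase, rose by 0.72, the ubiquitin-conjugating enzyme Ube2c by 0.58 and the centrosome kinase Nek2 by 0.44. Bub3, which anchors the checkpoint kinases to kinetochores, rose by 0.25 with overlap, at 90.0, 77.6, 81.6 and 86.6 against 88.6, 111, 107 and 95.3 CPM. The checkpoint genes Mad2l1 (0.15), Ttk (0.04) and Bub1 (-0.16) were not called.

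Of the Aurora kinases and the chromosomal passenger complex, which correct faulty attachments and guide cytokinesis, 4 of 6 rose. Aurka, the kinase of the spindle poles, rose by 0.58, Aurkb, the kinase of the complex, by 0.49 and its subunit survivin, Birc5, by 0.53. The scaffold Incenp, the most abundant of this role per kilobase, was at 137, 138, 136 and 135 CPM against 162, 162, 153 and 157, a small rise of 0.21 without overlap. The remaining subunit went the other way. Cdca8, borealin (chromosome 4, 124918465 to 124939311, minus strand), was at 31.2, 32.1, 30.8 and 26.8 CPM in the 2D control against 20.8, 28.3, 26.3 and 27.4 with the Ankrd35 hairpin (-0.24 ± 0.09, SE, adjusted p = 0.024). Without replicate 1 of 2D shAnkrd35, its lowest value, the log2 fold change was -0.14 (adjusted p = 0.0759), and without replicates 2 or 3 of 2D shGFP it was -0.21 (0.0692) and -0.23 (0.0538), so the call rested on each of these libraries. Tpx2, the activator of Aurka, was not called (0.06).

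Kinesins and spindle proteins rose in 6 of 11 cases. The microtubule-depolymerizing kinesin Kif2c was at 30.5, 28.0, 27.8 and 27.8 CPM in 2D shGFP and at 46.4, 43.6, 45.4 and 41.2 in 2D shAnkrd35 (0.63), again without overlap. The chromosome-arm motor Kif22 rose by 0.64, Kif20a, a motor of cytokinesis, by 0.57, the chromokinesin Kif4 by 0.23 and the plus-end kinesin Kif18b by 0.21. Kif23, the motor of the central spindle, was at 59.6, 69.1, 64.4 and 67.9 against 92.1, 83.0, 92.3 and 96.3 CPM (0.48). The spindle motor Kif11 had a log2 fold change of -0.41 that was not called (adjusted p = 0.0774), and Hmmr (0.11), Nusap1 (0.11) and Prc1 (0.05), proteins that bind and bundle spindle microtubules, were not called either. Of the remaining members, Cdca2 (0.25), which recruits a phosphatase to chromosomes, rose. Cdca3, an adaptor of a ubiquitin ligase that permits entry into mitosis, was at 39.6, 36.8, 31.9 and 36.7 against 46.2, 60.4, 61.8 and 54.4 CPM (0.61), without overlap. Among 3 cytokinesis genes Racgap1 rose, at 212, 201, 211 and 216 against 251, 246, 250.2 and 231 CPM (0.22). The others, Ect2 (-0.02) and the contractile ring protein Anln (-0.06), were not called. At the kinetochore, Nuf2 (0.23) and the centromeric histone Cenpa (0.21, with 33.9, 38.47, 41.4 and 42.6 CPM under the hairpin) rose, both with overlap. Cenpa lost its call without replicate 3 or 4 of 2D shAnkrd35 or replicate 3 of 2D shGFP (adjusted p = 0.0528 to 0.0619), and Kif4 without replicate 1 or 4 of the former or 2 of the latter (0.0512 to 0.0745). The other subunits of the microtubule-binding Ndc80 complex, Ndc80 (0.22) and Spc25 (0.29), were not called.

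**Figure D2:**
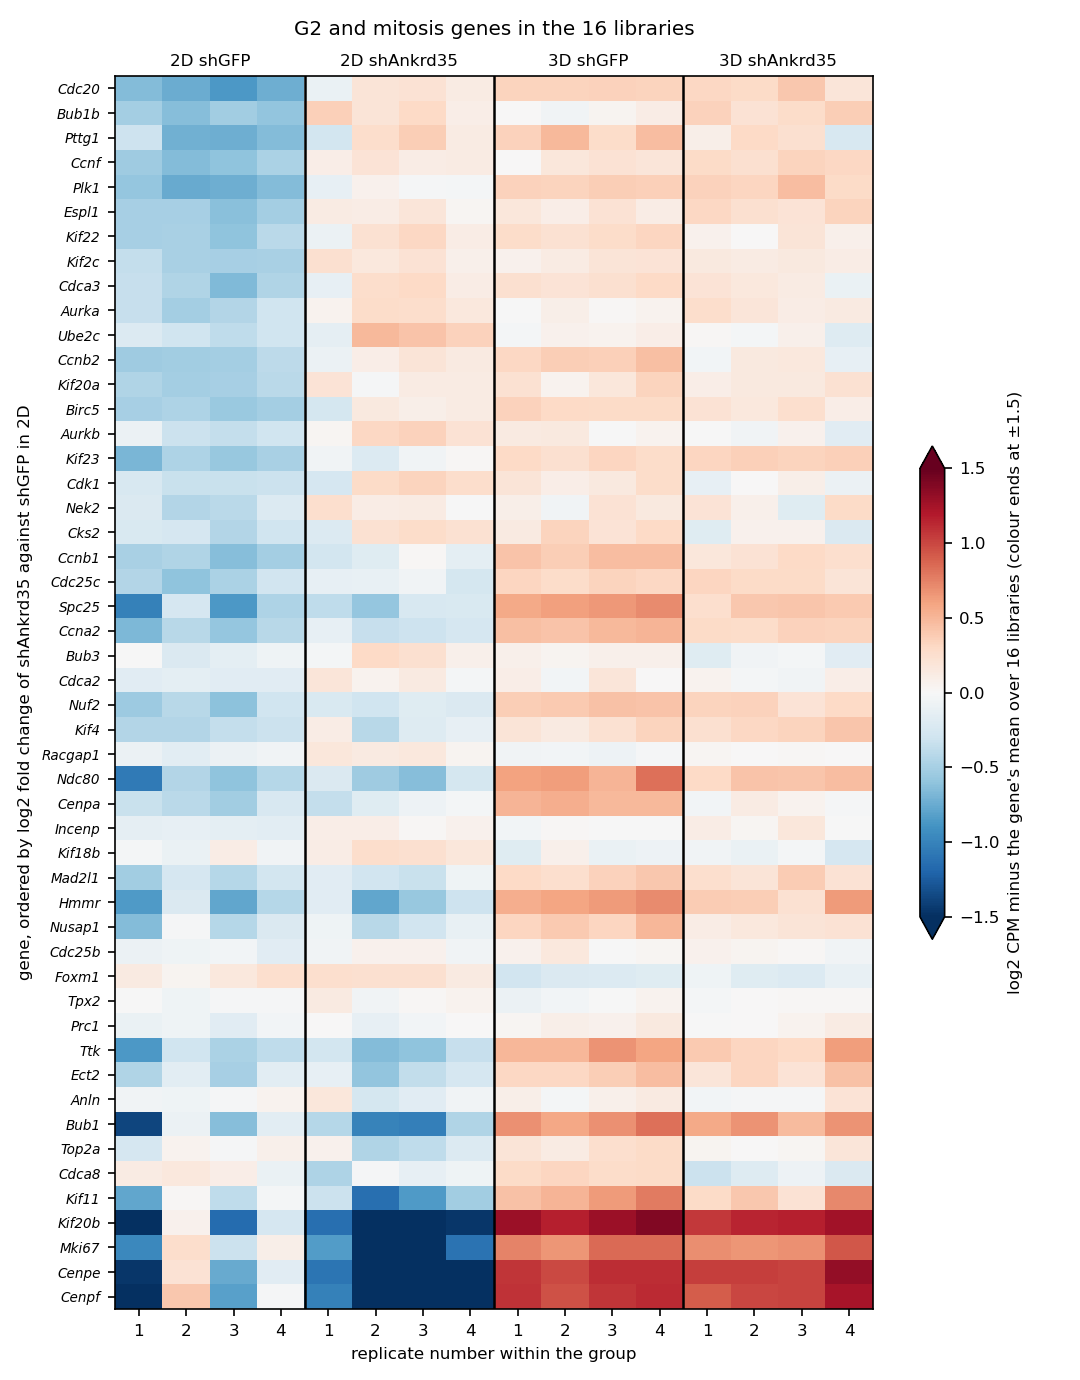
Log2 CPM of each gene in each of the 16 libraries minus the gene's mean over them, with genes ordered by their 2D hairpin fold change and libraries by group and replicate number. The upper rows are lowest in the 4 libraries of the 2D control, while the bottom 4 rows (Kif20b, Mki67, Cenpe and Cenpf) are low with the Ankrd35 hairpin in 2D and in replicates 1 and 3 of the 2D control and high in all 3D libraries.

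Mki67, whose product Ki-67 coats mitotic chromosomes and is the usual stain for cycling cells, fell in 2D shAnkrd35 while most members rose. The gene lies on chromosome 7 (135689784 to 135716361, mm10, minus strand). Its level was 129.6, 305, 202 and 269.6 CPM in 2D shGFP and 143, 80.6, 87.6 and 118 CPM in 2D shAnkrd35 (means of 227 ± 77.4 and 107 ± 28.7, SD, n = 4). The log2 fold change was -1.04 ± 0.22 (SE, adjusted p = 0.0012), a level of 0.485 of the control, but replicate 1 of 2D shGFP lay below replicate 1 of 2D shAnkrd35, so the groups overlapped. Spread within the control was far wider than for the members that rose: the highest 2D shGFP value of Mki67 was over 2 times its lowest, and for Bub1b they were 80.0 and 73.1 CPM.

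Cenpe, Cenpf and Kif20b behaved like Mki67 library by library. Cenpf, a large kinetochore and nuclear matrix protein (chromosome 1, 189640606 to 189688086, minus strand), was at 26.3, 102, 43.8 and 75.8 CPM in the 2D control against 38.0, 19.2, 21.2 and 26.0 with the Ankrd35 hairpin (-1.11 ± 0.32, SE, adjusted p = 0.008). Cenpe, the kinetochore motor that brings chromosomes to the spindle equator (chromosome 3, 135212537 to 135273611, plus strand), was at 15.1, 48.4, 24.6 and 37.0 against 19.5, 9.75, 12.4 and 14.1 CPM (-1.08 ± 0.28). Kif20b, a motor of the midbody (chromosome 19, 34922361 to 34975745, plus strand), was at 9.74, 33.7, 14.4 and 26.8 against 14.6, 7.13, 8.43 and 11.7 CPM (-0.90 ± 0.31, adjusted p = 0.0217). In 2D shGFP all 4 genes had the same order of libraries, with replicate 2 highest, then 4, then 3, and replicate 1 lowest. In 2D shAnkrd35 replicate 1 was highest and replicate 2 lowest for all 4. The count of fallen members leaned on single controls: 8 members fell without replicate 1 of 2D shGFP and 3 without replicate 2 of 2D shGFP. Kif20b lost its call without replicate 2 or 4 of 2D shGFP or replicate 2 or 3 of 2D shAnkrd35 (adjusted p = 0.0531 to 0.0764), and in a fit of the 8 libraries of 2D alone 3 members fell.

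**Figure D3:**
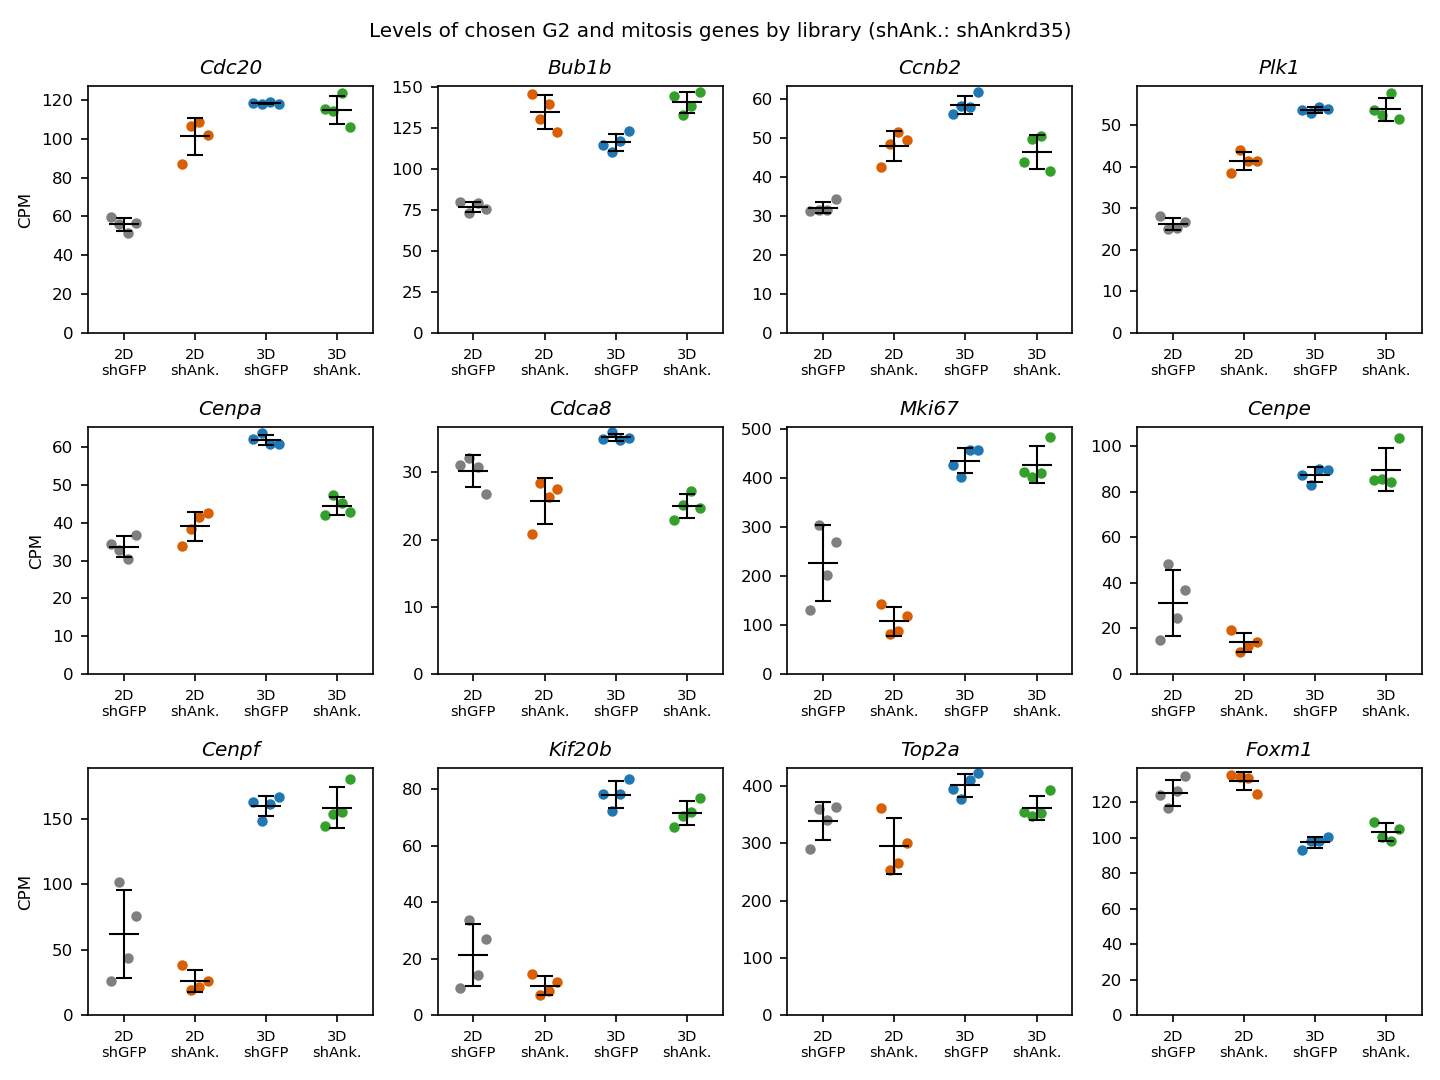
CPM of 12 members in each library (points) with the group mean and SD (bars, n = 4), each panel starting at 0. Cdc20, Bub1b, Ccnb2 and Plk1 are lowest in 2D shGFP with little spread, whereas Mki67, Cenpe, Cenpf and Kif20b spread widely in 2D shGFP, are lowest on average in 2D shAnkrd35 and overlap between the hairpins in 3D.

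Of the 5 members that fell, 4 have long transcripts. By length of the longest protein-coding transcript Cenpf (11130 bases), Mki67 (10061), Cenpe (7910) and Kif20b (5564) ranked 1, 2, 3 and 6 among the 50. The members' median was 3281 bases. Kif20b had the lowest GC content of that transcript (39.38%), and Cenpe and Cenpf had 42.95% and 43.26%. Mki67, at 46.56%, was near the members' median of 47.6%. Cdca8 is unlike them, with 1626 bases and 52.89% GC, rank 46 of 50 by length. With a boundary at 5 kb, set after the values were seen, 29 of 43 shorter members rose and 1 fell in 2D, and of 7 longer ones 1 rose (Espl1, at 56.08% the highest GC content of all) and 4 fell. Mad2l1 (7557 bases) and Top2a (5221) were the other long members and were not called. Across the 50 members the 2D fold change had a Spearman correlation of -0.49 with length and 0.57 with GC content, given as a description. The same values over 12217 genes with a length were -0.36 and 0.41, so this gradient runs through the whole table and not through the members alone.

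**Figure D4:**
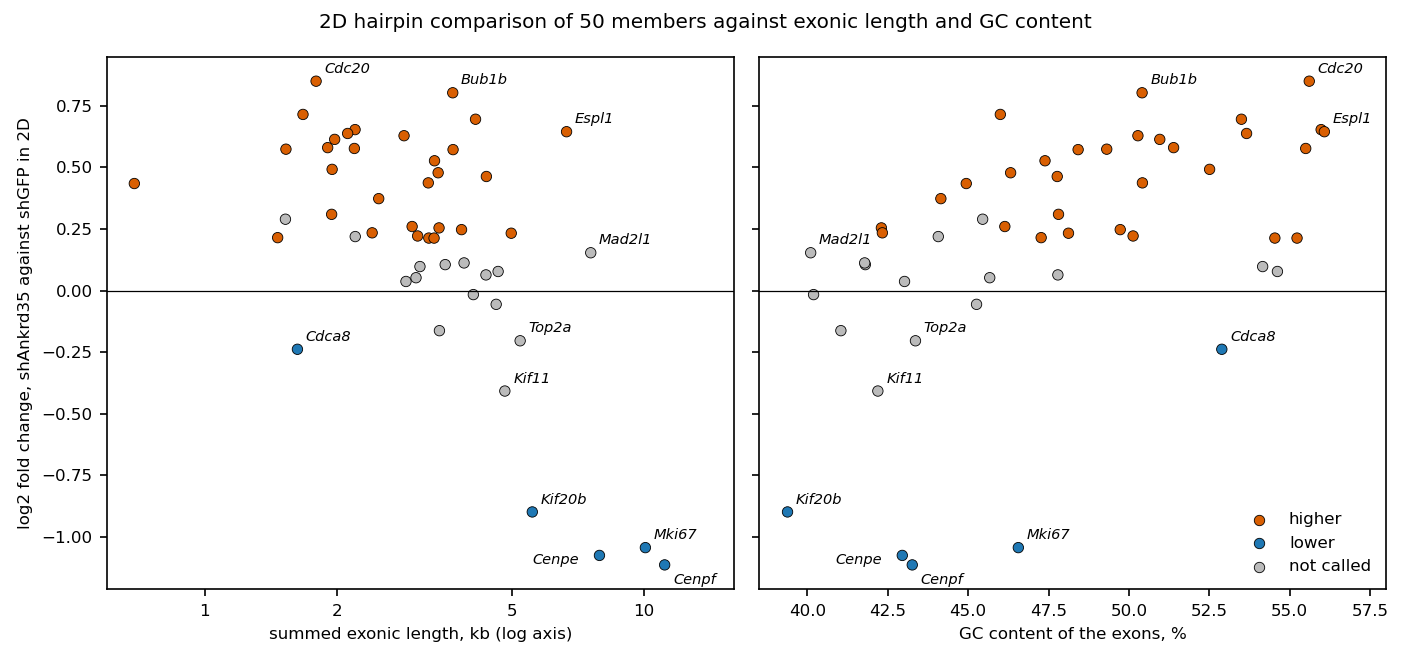
Log2 fold change of shAnkrd35 against shGFP in 2D for the 50 members (points, coloured by limma's call), by length (log axis) and GC content. Both are of the longest protein-coding transcript, although the axes name the exons. The 4 largest falls are among the 6 longest members, and Cdca8 is the one short member that fell.

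Libraries differed in how strongly levels followed GC content, and the levels of Mki67, Cenpe, Cenpf and Kif20b moved with that slope. The slope, in log2 units per 10 percentage points of GC, was 0.296, -0.105, 0.118 and -0.011 in replicates 1 to 4 of the 2D control and 0.264, 0.546, 0.422 and 0.295 with the Ankrd35 hairpin in 2D. In 3D it ran from -0.302 to -0.237 for shGFP and from -0.276 to -0.126 for shAnkrd35. For the 5 fallen members the choice fixes the direction between the 2D groups. Their median deviation from their own means was -1.46, 0.21, -0.76 and -0.10 in the 2D control. In the 2D hairpin group it was -1.01, -1.99, -1.74 and -1.45. Within both groups the order of the libraries by median was the reverse of their order by slope, from the steepest slope and lowest median to the flattest and highest. Cdca8 did not follow this order: in the 2D hairpin group it was lowest (20.8 CPM) in replicate 1, with the flattest slope, and highest (28.3 CPM) in replicate 2, with the steepest. For the 30 risen members, whose choice fixes the direction in 2D, the medians were -0.40, -0.45, -0.51 and -0.36 against -0.07, 0.14, 0.17 and 0.09. The control showed no order by slope. With the Ankrd35 hairpin the median was instead lowest at the flattest slope (-0.07, replicate 1) and highest at the steepest slopes (0.14 and 0.17, replicates 2 and 3).

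Replicate 1 of 2D shGFP had nearly the same GC slope (0.296) as replicates 1 and 4 of 2D shAnkrd35 (0.264 and 0.295). This set of libraries was chosen after the slopes were seen. Its libraries were less alike in the slope on length, in log2 units per doubling: -0.009 in the control against 0.016 and -0.118 in the hairpin libraries. Mki67 was at 129.6 CPM in that control and at 143 and 118 CPM in the hairpin libraries, Cenpf at 26.3 against 38.0 and 26.0, Cenpe at 15.1 against 19.5 and 14.1, and Kif20b at 9.74 against 14.6 and 11.7. The control thus lay between the hairpin libraries for Mki67, Cenpf and Cenpe and below both for Kif20b. In the same 3 libraries Cdc20 was at 59.7 against 87.2 and 102 CPM. Bub1b was at 80.0 against 146 and 122 and Plk1 at 28.1 against 38.6 and 41.4. The 2D groups do not overlap for these genes, so any choice of libraries would give higher values with the hairpin. Whether either slope has a part in these results was not tested beyond the fit that follows. With each library's smooth trend on GC content and length removed, 39 members were higher and 4 lower (against 28.7% and 27.8% of all genes) and the median was 0.34. Mki67 (-0.72, adjusted p = 0.0024), Cenpe (-0.64, 0.0109) and Cenpf (-0.63, 0.0371) then still passed with smaller sizes, Kif20b (-0.31, 0.142) did not, and Cdca8 (-0.45, 6.894e-06) fell further. Members not called before, Mad2l1 (0.77), Hmmr (0.43), Ect2 (0.43) and Nusap1 (0.41) among them, were then higher. Cenpa (0.12) and Kif18b (0.09) were no longer called.

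**Figure D5:**
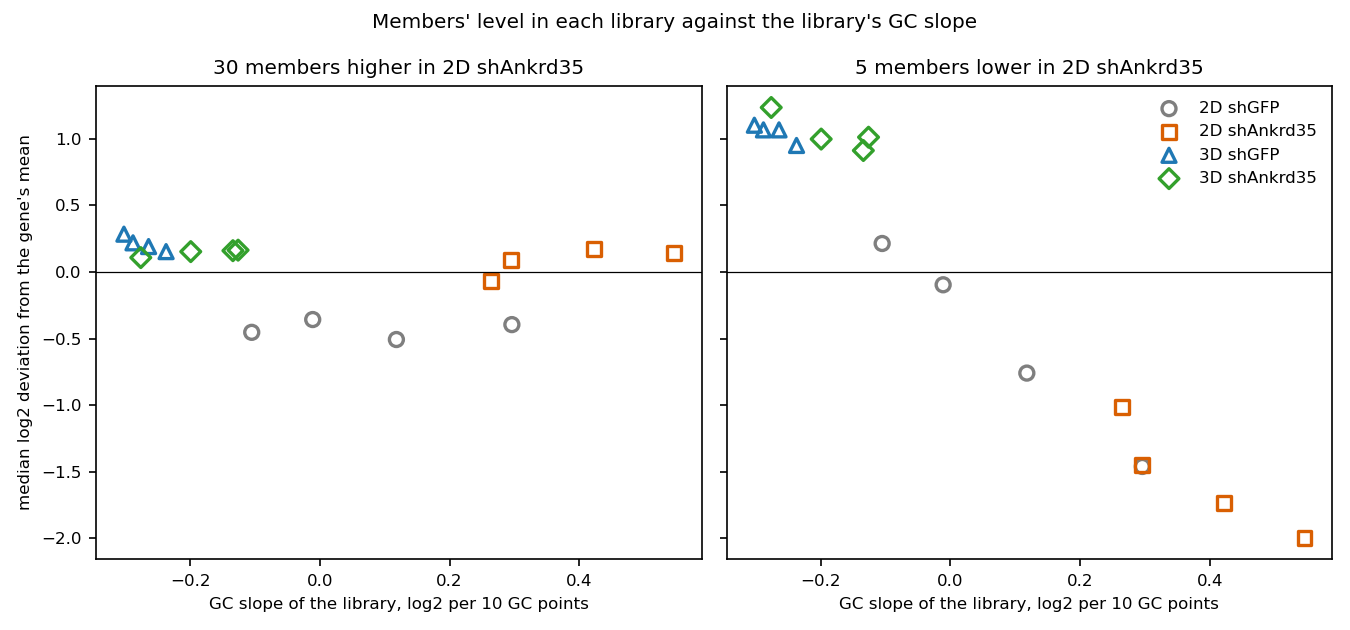
Median log2 deviation of the 30 members that rose (left) and the 5 that fell (right) in the 2D hairpin comparison, in each of the 16 libraries, against the library's GC slope. Both sets were chosen by these calls, which fixes the direction between the 2D groups in each panel. The median of the fallen members descends from 0.91 or more at the 3D slopes to -1.99 at the steepest slope. Replicate 1 of 2D shGFP and replicate 4 of 2D shAnkrd35 coincide at -1.46 and -1.45.

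In 3D the hairpins differed little over the same genes. Of the 50 members 2 rose and 5 fell in libraries labelled shAnkrd35, and the median was -0.07. Over all genes 29.7% were called in this comparison, 15.0% higher and 14.6% lower, so the members' 4.0% higher was below the background and their 10.0% lower not far from it. No member changed by 2-fold or more, against 2.16% of all genes. Bub1b was again higher, at 115, 110.3, 117 and 123 CPM in the 3D control against 145, 133, 138 and 147 with the Ankrd35 hairpin (0.27 ± 0.06, SE, adjusted p = 0.0012). Ccnf was at 37.8, 42.3, 43.7 and 42.8 against 46.1, 44.4, 47.4 and 46.6 CPM (0.15, adjusted p = 0.0455). The 2 genes were thus above the control in every library of both growth types, although Ccnf passed by a small margin and lost its call when any 1 of 6 of the 8 libraries in 3D was left out (adjusted p = 0.0589 to 0.166).

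The members that fell in 3D were Cenpa, Cdca8, Ccnb2, Ccnb1 and Cks2. Cenpa, the histone that marks centromeres (chromosome 5, 30666777 to 30674830, plus strand), was at 62.1, 63.7, 60.9 and 60.9 CPM in 3D shGFP and at 42.2, 47.4, 45.3 and 42.9 in 3D shAnkrd35 (-0.48 ± 0.07, SE, adjusted p = 6.7e-05). Cdca8 was at 35.0, 36.0, 34.8 and 35.1 against 22.9, 25.1, 27.2 and 24.6 CPM (-0.50 ± 0.09, adjusted p = 0.000289). These are the clearest gaps between the hairpins in 3D, with no overlap. Ccnb2 was at 56.0, 58.1, 57.8 and 61.7 against 43.8, 49.8, 50.3 and 41.5 CPM (-0.34 ± 0.07). Ccnb1 fell by 0.19 and Cks2, at 27.4, 31.4, 28.8 and 30.7 against 22.0, 26.0, 26.2 and 21.4 CPM, by 0.31. Without replicate 1 of 3D shAnkrd35 neither was called (adjusted p = 0.0563 and 0.078), and Cks2 also lost its call without replicate 4 of that group or replicate 2 or 4 of 3D shGFP. Cdca8 was the one member that fell in both growth types, and Ccnb1, Ccnb2, Cks2 and Cenpa were higher with the hairpin in 2D and lower in 3D.

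In 3D 38 of the 50 log2 fold changes were negative, most of them not called. Without overlap, 14 members were lower, the 5 called and 9 not called, and 5 were higher, against 19.4% and 18.8% of all genes. When only the 8 libraries of 3D were fitted, 16 members (32.0%) were lower and 4 (8.0%) higher, against 21.2% and 20.1% of all genes in that fit. Without both 2D libraries numbered 1, 14 (28.0%) were lower and 3 (6.0%) higher, against 18.3% and 18.8%. With replicate 1 of 3D shAnkrd35 left out, 3 members fell. Mki67 (-0.03 ± 0.22), Cenpe (0.03 ± 0.28), Cenpf (-0.02 ± 0.32) and Kif20b (-0.13 ± 0.31) showed no call in 3D. In this fit their SE carries the wide spread of the 2D libraries. Their values there were 426, 403, 456 and 457 against 412, 402, 409.8 and 484 CPM for Mki67 and 87.4, 82.9, 89.9 and 89.6 against 85.3, 85.4, 84.1 and 104 CPM for Cenpe. Cenpf was at 163, 148, 161 and 167 against 145, 154, 156 and 181 CPM and Kif20b at 78.4, 72.2, 78.3 and 83.8 against 66.8, 70.7, 71.9 and 77.1. The hairpins overlapped for all 4, and the GC slopes of the 3D groups overlapped too.

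Of the members that rose in 2D, several whose 2D groups did not overlap were not called in 3D. Espl1 was at 97.1, 92.4, 101 and 93.2 CPM in the 3D control against 108, 102, 99.7 and 109 with the Ankrd35 hairpin (0.13, not called). Incenp was at 146, 152, 149.7 and 150.2 against 162, 153, 169 and 150.2 CPM (0.09, not called). Cdca3 was at 59.3, 58.1, 59.5 and 62.1 against 58.2, 56.2, 55.0 and 46.9 CPM (-0.15, not called). The hairpins overlapped in all 3. Kif23 stood at 117, 112, 119 and 116 against 119, 122, 119.9 and 122 CPM (0.06) and Racgap1 at 217, 218, 212 and 222 against 229, 226, 226 and 226 CPM (0.06), both without overlap but not called.

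In control cells nearly the whole set was higher in methylcellulose than in the monolayer. With shGFP 45 members rose from 2D to 3D, 1 fell and 4 were not called (Anln, Tpx2, Racgap1 and Kif18b), and the median was 0.70. Over all genes 67.2% were called, 35.2% higher and 32.1% lower, and the share of members higher was 90.0%. For the same 45 risen members and for Foxm1 the growth types did not overlap, against 33.3% higher and 31.6% lower over all genes. Changes of at least 2-fold were seen in 11 members, against 11.4% of all genes. Plk1 went from 28.1, 25.0, 25.2 and 26.8 CPM in 2D to 53.6, 52.9, 54.4 and 54.0 in 3D (1.03 ± 0.05, SE, adjusted p = 2.966e-11). Cdc20 went from the 2D values above to 118, 118, 119 and 118 CPM (1.08 ± 0.07) and Ccna2 from 43.0, 51.3, 45.9 and 51.4 to 93.3, 91.9, 96.0 and 97.6 (0.99 ± 0.06). In all 3 genes the 3D libraries lay close together and about 2-fold above 2D.

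By role, the kinetochore genes rose most with shGFP. All 6 rose, with a median of 1.27, among them Ndc80 (1.27), Spc25 (1.28), Nuf2 (0.87, from 22.3, 24.4, 21.2 and 26.5 to 42.1, 42.5, 44.0 and 43.6 CPM) and Cenpa (0.88, from 34.4, 32.9, 30.3 and 36.9 CPM to the 3D values above). All 10 checkpoint and anaphase genes rose (median 0.69), with Bub1 at 1.25, Ttk, the kinase Mps1 that starts checkpoint signalling, at 1.06, Pttg1 at 0.99, Mad2l1 at 0.69, Espl1 at 0.68, Bub1b at 0.59, Nek2 at 0.41, Ube2c at 0.34 and Bub3 at 0.17. Of the mitotic entry genes 9 of 10 rose, with Ccnb1 at 0.95, Ccnb2 at 0.86, Cdc25c at 0.76, Ccnf at 0.70, Cks2 at 0.55, Cdk1 at 0.48 and Cdc25b at 0.15. The chromosomal passenger genes rose less (5 of 6, median 0.28), with Birc5 at 0.81, Aurka at 0.43, Aurkb at 0.35, Cdca8 at 0.22 and Incenp at 0.13. Kinesins and spindle proteins rose in 10 of 11 cases, from Prc1 (0.17) and Kif2c (0.60) to Hmmr (1.19) and Kif20b (2.04).

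Foxm1, the transcription factor that raises G2 and mitosis genes, was the one member to fall in control cells. It was at 124, 117, 126 and 135 CPM in 2D shGFP and at 93.1, 98.1, 98.4 and 100.4 in 3D shGFP (-0.36 ± 0.05, SE, adjusted p = 5.783e-06), and it fell likewise with shAnkrd35, from 136, 134, 134 and 125 to 109, 100.3, 98.4 and 105 CPM (-0.36 ± 0.05, adjusted p = 6.755e-06). The growth types did not overlap with either hairpin. The gene lies on chromosome 6 (128362967 to 128376146, plus strand). Its log2 fold change with the trend removed was -0.23 with shGFP and -0.26 with shAnkrd35, called in both.

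Mki67 went with the other members in this comparison. It rose from 129.6, 305, 202 and 269.6 CPM to 426, 403, 456 and 457 CPM (1.01 ± 0.22, SE, adjusted p = 0.001), and Cenpe (1.61), Cenpf (1.55) and Kif20b (2.04) rose more than any other member. Here too the GC slope parted the groups, since all 3D shGFP libraries had slopes under -0.23 and the 2D shGFP libraries had slopes of -0.105 to 0.296. Growth type and slope cannot be told apart for these genes or for the other members. With the trend removed, 40 members were higher and 1 lower (against 31.6% and 37.5% of all genes) with a median of 0.64, and Mki67 was at 1.05. Top2a (0.25 before, -0.02 after), Prc1 (0.17 before, -0.004 after) and Bub3 (0.17 before, -0.24 after) lost their calls with a change of sign, and Ect2 and Mad2l1 lost theirs with the sign kept. Bub3, Cdca8 and Top2a were also the members whose rise did not pass with some single shGFP libraries left out (Bub3 with any of 5, Cdca8 of 4 and Top2a of 3).

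With the hairpin against Ankrd35, the rise from 2D to 3D took in fewer genes. Of the 50 members 25 rose, 6 fell and 19 were not called, with a median of 0.16, against 70.4% of all genes called, 34.4% higher and 36.0% lower. The growth types did not overlap for 22 members that were higher and 3 that were lower (29.9% and 29.3% of all genes), and 6 members changed by at least 2-fold (13.8% of all genes). The members that fell were Aurkb (-0.26), Ube2c (-0.31), Bub3 (-0.25), Kif18b (-0.30), Racgap1 (-0.11) and Foxm1. Kif18b, at 32.2, 30.6, 35.4 and 31.7 in the 2D control and 29.0, 34.5, 30.8 and 31.2 CPM in the 3D control, was at 35.5, 39.4, 38.8 and 37.0 CPM in 2D shAnkrd35 and 31.7, 30.7, 32.2 and 27.7 in 3D shAnkrd35. Bub3 was at 88.6, 111, 107 and 95.3 against 79.6, 86.7, 88.7 and 80.6 CPM, with overlap, and at 94.99, 92.7, 95.6 and 95.3 CPM in the 3D control. Racgap1 went from 251, 246, 250.2 and 231 to 229, 226, 226 and 226 CPM, a small fall without overlap. Of the 6, Foxm1 was also lower with shGFP, 3 (Aurkb, Ube2c and Bub3) were higher with it, and Kif18b and Racgap1 were not called there.

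The largest rises with shAnkrd35 belonged to the genes that were low in 2D shAnkrd35. Kif20b rose by 2.82 ± 0.31, Cenpe by 2.72 ± 0.28, Cenpf by 2.65 ± 0.32 and Mki67 by 2.03 ± 0.22 (SE), which for Cenpe is 6.58-fold. Below them came Bub1 (1.32), Kif11 (1.11), Ttk (0.87), Hmmr (0.86), Ndc80 (0.81) and Spc25 (0.72). The transcripts of Bub1, Hmmr, Kif11 and Ttk are among the lower in GC content of the members (41.04% to 43.02%). Ccna2 rose from 62.8, 53.8, 55.2 and 57.4 to 83.8, 82.8, 86.9 and 86.6 CPM (0.57) and Nuf2 from 27.7, 26.3, 28.7 and 28.0 to 40.9, 41.4, 37.5 and 40.1 CPM (0.53). Both separated the growth types in every library. Cdc20 was at 87.2, 107, 109 and 102 in 2D and 116, 114, 124 and 106 CPM in 3D (0.19, with overlap), and this call was lost without replicate 1 of 2D shAnkrd35 (0.12, adjusted p = 0.0568) or replicate 3 of 3D shAnkrd35 (0.15, 0.0614). Cenpa (0.19) lost its call without the same libraries or replicate 2 of 3D shAnkrd35 (adjusted p = 0.0528 to 0.0883). All 7 members of 5 kb or longer rose with shAnkrd35 (median 2.03), and of the 43 shorter ones 18 rose and 6 fell (median 0.07). With the trend removed 24 were higher and 11 lower (against 29.7% and 38.3% of all genes). Mad2l1 (0.48 before, -0.60 after), Ect2 (0.62 before, -0.31 after), Nusap1 (0.39 before, -0.28 after) and Top2a (0.30 before, -0.23 after) then passed in the other direction, while Nuf2 (-0.06 after) was not called. Mki67 (1.70), Cenpe (2.04), Cenpf (1.95) and Kif20b (1.69) stayed higher.

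Whether the hairpins differed by another amount in 3D than in 2D was tested as a contrast of its own. For 29 members the effect in 3D was lower than in 2D and for 2 it was higher, with a median difference of -0.38, against 35.8% of all genes called, 18.6% lower and 17.1% higher. The difference was at least 2-fold for 3 members (Pttg1, Mki67 and Cenpe), against 3.8% of all genes. The 4 smallest p-values belonged to Cdc20 (-0.89 ± 0.09, SE), Ccnb2 (-0.91 ± 0.10), Kif2c (-0.65 ± 0.07) and Plk1 (-0.65 ± 0.07), with adjusted p from 3.528e-06 to 1.015e-05. In Cdc20, Kif2c and Plk1 the 2D shAnkrd35 libraries were above 2D shGFP while the 3D groups overlapped. Plk1 was at 53.6, 52.4, 57.8 and 51.5 CPM in the 3D hairpin group, around the control values there. For Kif2c the 3D values were 41.0, 42.8, 44.8 and 45.1 CPM with shGFP and 43.3, 42.4, 43.2 and 42.4 with shAnkrd35, close to the 2D shAnkrd35 level. In Ccnb2 both groups labelled shAnkrd35 were near 47 CPM (means of 48.0 in 2D and 46.3 in 3D) and the shGFP groups were at 32.1 and 58.4. The other members with a lower effect in 3D were Espl1, Ccnf, Ccnb1, Ccna2, Cdk1, Cks2, Cdc25c, Bub1b, Bub3, Pttg1, Ube2c, Nek2, Aurka, Aurkb, Birc5, Cdca2, Cdca3, Kif20a, Kif22, Kif23, Kif18b, Cenpa, Nuf2, Spc25 and Racgap1, from -1.01 (Pttg1) to -0.16 (Racgap1). Kif18b, Racgap1 and Spc25 passed by small margins and lost the call when any 1 of 12, 5 and 2 libraries was left out.

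Mki67 (1.01 ± 0.32, SE, adjusted p = 0.0233) and Cenpe (1.11 ± 0.39, 0.0408) were the members with a higher effect in 3D than in 2D. Cenpf (1.10 ± 0.45, 0.0697) and Kif20b (0.77 ± 0.44, 0.178) had like sizes and were not called. Each of these rests on the 2D values, which varied widely. Without replicate 2 or replicate 3 of 2D shAnkrd35 no member was called higher (Mki67 0.89 and 0.93, adjusted p = 0.0533 and 0.0529), and Cenpe lost its call when any 1 of 12 of the 16 libraries was left out. Without replicate 1 of 2D shGFP 4 members were higher, and without both 2D libraries numbered 1 there were 5. With the trend removed, Mki67 was at 0.65 (adjusted p = 0.0471), Cenpe at 0.69 (0.0595), and 34 members were lower with a median of -0.45. Top2a, at 290.5, 359, 341 and 363 CPM against 362, 254, 266 and 301 for shAnkrd35 in 2D, and 394, 377, 411 and 423 against 355, 348, 352 and 392 in 3D, was among the 19 members without a call.

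Genes of the same phase outside the list were counted for comparison. Of 136 further G2 and mitosis genes tested, 56 (41.2%) rose and 30 (22.1%) fell in the 2D hairpin comparison (median 0.06), against 29.0% and 28.8% of all genes. In 3D 7 (5.1%) rose and 16 (11.8%) fell, against 15.0% and 14.6%. From 2D to 3D 75 (55.1%) rose and 18 (13.2%) fell in control cells, against 35.2% and 32.1%. With the Ankrd35 hairpin 51 (37.5%) rose and 46 (33.8%) fell, near the 34.4% and 36.0% of all genes. The difference of hairpin effects was higher for 7 (5.1%) and lower for 53 (39.0%), against 17.1% and 18.6%. In the 2D hairpin comparison the kinetochore gene Zwint (0.81), Oip5 (0.71), which helps load Cenpa, the spindle proteins Psrc1 (0.75), Dlgap5 (0.62) and Kifc1 (0.58) and the cytokinesis gene Iqgap3 (0.68) rose. Of the 14 DREAM and MuvB regulators 6 rose and 4 fell there. Lin37 (0.72), a MuvB subunit, and Rbbp4 (0.32), a histone-binding subunit, were higher. So were Tfdp1 (0.19), E2f4 (0.16), the NF-Y subunit Nfyc (0.13) and the pocket protein Rbl2 (0.17). Lower were Nfya (-0.48) and Nfyb (-0.30), the other subunits of NF-Y, Mybl2 (-0.17), which encodes B-Myb, and Rbl1 (-0.21), the pocket protein p107. Condensin and cohesin genes went against this, with 4 of 20 higher and 9 lower in 2D (median -0.42) and 16 higher and 1 lower from 2D to 3D with shGFP. The condensin ATPase subunits Smc2 (-1.10) and Smc4 (-0.89) were lower in 2D, as Mki67 was, and the regulatory subunits Ncapd2 (0.40) and Ncaph (0.40) were higher. With the trend removed the median of the condensin and cohesin list in 2D was -0.04, with 6 higher and 8 lower.

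S phase genes act just before G2 in the cycle. Of 37 tested, 22 (59.5%) rose and 2 (5.4%) fell in the 2D hairpin comparison (median 0.23), against 29.0% and 28.8% of all genes. From 2D to 3D, however, 8 (21.6%) rose and 18 (48.6%) fell with shGFP (median -0.16), against 35.2% and 32.1% of all genes. With shAnkrd35 3 (8.1%) rose and 29 (78.4%) fell (median -0.41), against 34.4% and 36.0%. The members went the other way there, with 45 and 25 of 50 higher. Cdc6, which loads the replicative helicase, Chaf1b of the chromatin assembly factor and the DNA ligase Lig1 had log2 fold changes of -0.16, -0.28 and -0.22 for the control and -0.69, -0.69 and -0.49 for the Ankrd35 hairpin, all called. Cdk inhibitors and regulators of the cycle downstream of p53 numbered 7. Of these, 2 (28.6%) rose and 4 (57.1%) fell from 2D to 3D in control cells, against the same shares of all genes as above. With the Ankrd35 hairpin 1 (14.3%) rose and 5 (71.4%) fell. Gadd45a (-2.52 for the control, -0.91 for the Ankrd35 hairpin), Sesn2 (-2.28 and -1.44) and Cdkn1a, the inhibitor p21 (-1.39 and -1.28), fell in both, as did Cdkn2d, the inhibitor p19 (-0.32 and -0.90), and Btg2 fell with the Ankrd35 hairpin (-0.37). Cdkn2c, the Cdk4 and Cdk6 inhibitor p18, rose in both (0.84 and 0.31), and Cdkn1b, the inhibitor p27, rose in control cells (0.34).

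For some members the counted reads may include other genes, since the use of strand in counting is not given in the sources used here. Exons of Kif20a overlap those of Cdc23 on the opposite strand over 29.3% of their length, those of Ube2c overlap Tnnc2 over 22.8%, Kif4 overlaps Pdzd11 over 15.1%, Cdc25c overlaps Gm3550 over 12.7%, Ccna2 overlaps Exosc9 over 12.5% and Prc1 overlaps Rccd1 over 11.1%. Cdc23 had log2 fold changes of -0.01 in the 2D and -0.32 in the 3D hairpin comparison, against 0.57 and -0.04 for Kif20a. Ccnb1 has 3 processed pseudogenes that match 51.7 to 52.0% of its longest protein-coding transcript at 97.3 to 99.2% identity (Ccnb1-ps, Gm12856 and Gm8416). Its values are thus uncertain.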

How the data were processed

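Poly(A) RNA of 16 libraries (4 groups of 4) was sequenced by the authors, whose tools were Trimmomatic 0.38, STAR 2.5.1b and edgeR with the mm10 genome, per the submitters' processing notes. For the counting program, the annotation and the use of strand, nothing can be stated (not given in the sources used here). The deposited values are log2 CPM (reads scaled to library size) in which the authors had added a small prior, on average 2 reads per library. The reads behind each value were recovered exactly from these steps (100% of values within 0.01 reads of a whole number), gave CPM for display and library totals, and were tested only under the voom alternative. A test on linear values had been planned. Since the values are log2 already, they were tested as deposited, with no further pseudocount.

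Genes at 1 CPM or more in at least 4 libraries were kept (12320 of 12321, Ankrd35 being the one left out). limma 3.58.1 (R 4.3.3, statmod 1.5.0) fitted 1 mean per group over all 16 libraries with trend and robust empirical Bayes, and p-values were adjusted by Benjamini-Hochberg over all 12320 genes, with a threshold of 0.05. Every adjusted p in the text is of this kind. The contrasts were shAnkrd35 against shGFP within 2D and within 3D, 3D against 2D within each hairpin, and the difference of the hairpin effects. Comparisons that use the same 4 libraries share them. The hairpin comparisons of 2D and 3D have no library in common, and neither have the growth comparisons of shGFP and shAnkrd35. Symbols written with dots or a leading X in place of other characters were restored (386). Length, GC content and positions came from GENCODE M21 (12218 symbols matched, 103 did not). Length and GC content are those of each gene's longest protein-coding transcript, or of its longest transcript where none is protein-coding. For the fits named as having the trend removed, each library's spline (5 df) on length and GC content was subtracted. Promoters came from RefSeq (GRCm38.p6).

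The members and all gene lists were chosen with earlier results of these data known, so their directions are no independent evidence. All 50 members are accounted for. Values in every library are given for Mki67 and for the 3 called members with the smallest p in each direction of each comparison. They are also given for the 4 with the smallest p in the difference of hairpin effects. The same holds for the most abundant member per kilobase of each role and for further members chosen after their values were seen. Chosen likewise were the list genes Smc2, Smc4, Cdkn1a, Cdkn1b, Cdkn2d, Btg2, Nfyb, Nfyc, Rbl1, Rbl2, Tfdp1, E2f4 and Mybl2. Alternatives were a fit of the compared libraries alone, a replicate block, the trend removed, other filters and prior, quantile normalization, voom weights on recovered reads and each library left out. The steps were tested on simulated data.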

Additional observations from a re-analysis of the deposited data

Results flagged for a closer look

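In 14 of 200 sets of 4 libraries (7.0%), 1 library lay far from the other 3 of its group, its gap to the nearest being above Dixon's critical share of the group's range. Chance gives such a gap in about 1 in 20 groups (5%). In the 2D control these were the highest values of Ccnb2 (34.35 CPM, replicate 4), Cdk1 (53.37, replicate 1) and Kif2c (30.47, replicate 1) and the lowest of Espl1 (56.06, replicate 3). With the Ankrd35 hairpin in 2D, replicate 1 was lowest for Cdk1 (52.79 CPM), Birc5 (30.65) and Cks2 (21.63), and this is the library that was unlike its fellows over all genes. In the same group Ccnf was highest in replicate 2 (43.32 CPM) and Foxm1 lowest in replicate 4 (125.0). In the 3D control Birc5 was highest in replicate 1 (47.07 CPM). With the Ankrd35 hairpin in 3D, replicate 4 was highest for Mki67 (483.5 CPM), Cenpe (103.7) and Anln (240.2), and it had the lowest GC slope of its group (-0.276). Spc25 was lowest there in replicate 1 (20.38 CPM).

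For 31 members the hairpin effect in 3D differed from that in 2D by limma's test of the difference itself (log2, 3D minus 2D). Among genes of entry into mitosis the differences were -0.91 for Ccnb2, -0.75 for Cks2, -0.67 for Cdk1, -0.65 for Plk1, -0.57 for Ccnb1, -0.55 for Ccnf, -0.42 for Ccna2 and -0.35 for Cdc25c. Checkpoint and anaphase genes had -1.01 for Pttg1, -0.89 for Cdc20, -0.66 for Ube2c, -0.53 for Bub1b, -0.52 for Espl1, -0.44 for Nek2 and -0.43 for Bub3. The Aurora and passenger genes had -0.65 for Birc5, -0.61 for Aurkb and -0.45 for Aurka. Kinesins had -0.83 for Kif22, -0.65 for Kif2c, -0.61 for Kif20a, -0.42 for Kif23 and -0.25 for Kif18b. Of the remaining members, Cdca3 had -0.76, Cenpa -0.69, Spc25 -0.56, Nuf2 -0.34, Cdca2 -0.29 and Racgap1 -0.16. Mki67 (1.01) and Cenpe (1.11) alone had a higher effect in 3D.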

How the results depend on the processing

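Members called in the main fit were followed through the alternatives. In each comparison of 2 groups, single libraries were left out only from the groups compared. Of the members so followed, 28 of 35 kept their call throughout in the 2D hairpin comparison, 4 of 7 in 3D and 39 of 46 for growth with shGFP. For growth with shAnkrd35 19 of 31 did, and for the difference of hairpin effects 25 of 31 did. The 5 members lower in 2D became 3 with only the 8 compared libraries. They also became 3 with the length and GC trend removed together with the replicate block, and 3 to 8 with 1 of the 2D libraries left out. In 3D the 2 higher members became 4 with only the 8 compared libraries, 1 with the replicate block and 1 to 3 with 1 library left out. The 5 lower members there became 16 with only the 8 compared libraries, 9 with voom weights, 14 without both 2D libraries numbered 1, and 3 to 7 with 1 library left out. Growth with shAnkrd35 had 6 lower members, and 11 with the trend removed, with or without the replicate block. The 2 members with a higher hairpin effect in 3D became 1 with the block, 1 with the trend removed, 0 with both (limma), 5 without both 2D libraries numbered 1, and 0 to 4 with 1 library left out. The cause of these changes was not tested. With the trend removed, with or without the block, some log2 fold changes reversed. For growth with shGFP these were Bub3 (-0.24), Top2a (-0.0195) and Prc1 (-0.0037). For growth with shAnkrd35 they were Top2a (-0.23), Mad2l1 (-0.60), Ect2 (-0.31), Nusap1 (-0.28) and Nuf2 (-0.0596). Of the latter, all but Nuf2 passed in the other direction, with the block as well as without it.

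Replicate numbers did not pair the libraries: over 24 same-number pairs the correlation of deviations was -0.482 to 0.206 (median -0.014). With the replicate block the counts higher and lower were 30 and 5 in 2D, 1 and 5 in 3D, 45 and 1 for growth with shGFP, 25 and 6 with shAnkrd35, and 1 and 29 for the difference. Depth limits the lowest values most: Cdc25c had the lowest mean over all libraries, 13.9 CPM, and Kif20b fell to 7.13 CPM in 1 library.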
